A study of Homo sapiens with 3 samples.

Results

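VCP peaks that lay at the outer end of a protein-coding gene and had no Flag peak nearby were examined in HCT116 cells, an established human line from a colorectal cancer, overexpressing VCP with a Flag tag. The peaks were selected on 2 measured features, a summit no more than 1 kb from an outer end of a RefSeq protein-coding gene on chromosomes 1 to 22, X or Y, and no interval of the Flag list within 1 kb of the VCP interval. Of the 395 VCP peaks at gene ends, 230 met this rule (58.2%, exact 95% interval 53.2 to 63.1), out of 1803 VCP peaks on the chromosomes in all. Across all 1803, the distance to the nearest Flag interval had a first quartile of 28177.5 bp. A lack of Flag within 1 kb was thus more common in the whole list than at gene ends. The 230 peaks are called Flag-free gene-end peaks here, and the other 165 VCP peaks at gene ends are called Flag-accompanied. The names refer to the deposited lists, since a Flag signal too weak to be listed cannot be seen in them.

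Chromatin of the Flag-tagged VCP cells was fixed and digested with micrococcal nuclease. The VCP library came from an antibody to VCP itself, which can bind tagged and untagged protein, and the Flag library from an antibody to the tag, with an input library alongside. Each was 1 library without replicates, so no difference between the antibodies could be tested against a spread between cultures, and shares carry exact binomial intervals that cover counting error only. The input and the expression of genes were not analysed here, and the labelled cell type was therefore not checked against transcripts. Among lists of marker genes, 0 of 24 for intestinal epithelium (exact upper bound 14.2%) and 1 of 35 for other cell types (2.86%, NCAM1) had such a peak, beside 1.36% of all protein-coding genes, which says little about the cell type.

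VCP, also called p97, is a hexameric ATPase that uses ATP hydrolysis to pull ubiquitin-tagged proteins out of complexes, membranes and chromatin. In the nucleus it is known for removing proteins from DNA during replication, repair and transcription, and in the cytoplasm for endoplasmic-reticulum-associated degradation. Its cofactors choose its substrates, and it has no known sequence-specific DNA binding of its own.

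Most of the strongest Flag-free gene-end peaks sat at gene starts. Of the 16 that reached a q of at most 0.05, the 5 whose summit fell inside a RefSeq promoter window are shown with that window. The peaks of UBB and EIF4A2, also among the strongest, had summits outside such windows and are not shown. Each window runs from 250 bases before a listed start to 50 after it, 5′ to 3′ on the strand of the gene, on GRCh38.p14. Capitals mark matches to 8 short motifs searched on both strands. These were the CCAAT box, the GC box GGGCGG, the ETS motif ACTTCCGG, the cyclic-AMP response element TGACGTCA, the E-box CACGTG, the NRF1 motif CGCATGCG, the YY1 motif AAGATGGC and the TATA motif TATAAA. No marked match overlaps another in these windows. The MRTO4 window is chr1:19251555-19251854 on the plus strand with the VCP summit at base 129. The AP1G1 window is chr16:71808785-71809084 on the minus strand with the summit at base 52. The ZNF562 window is chr19:9675051-9675350 on the minus strand with the summit at base 128. The DDOST window is chr1:20661320-20661619 on the minus strand with the summit at base 169. The PPP1R37 window is chr19:45092929-45093228 on the plus strand with the summit at base 159.
MRTO4 promoter: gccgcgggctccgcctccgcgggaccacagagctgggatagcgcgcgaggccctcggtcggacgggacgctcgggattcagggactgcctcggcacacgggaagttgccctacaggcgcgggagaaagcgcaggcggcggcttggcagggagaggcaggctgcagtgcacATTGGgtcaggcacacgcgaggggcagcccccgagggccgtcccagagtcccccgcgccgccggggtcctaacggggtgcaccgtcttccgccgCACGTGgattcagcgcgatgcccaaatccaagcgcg
AP1G1 promoter: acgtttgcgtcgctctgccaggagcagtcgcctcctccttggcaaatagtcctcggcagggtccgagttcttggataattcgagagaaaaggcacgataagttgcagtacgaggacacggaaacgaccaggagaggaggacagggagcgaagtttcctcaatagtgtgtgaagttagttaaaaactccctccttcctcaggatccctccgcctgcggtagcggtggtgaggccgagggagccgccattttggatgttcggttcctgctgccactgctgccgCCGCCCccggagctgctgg
ZNF562 promoter: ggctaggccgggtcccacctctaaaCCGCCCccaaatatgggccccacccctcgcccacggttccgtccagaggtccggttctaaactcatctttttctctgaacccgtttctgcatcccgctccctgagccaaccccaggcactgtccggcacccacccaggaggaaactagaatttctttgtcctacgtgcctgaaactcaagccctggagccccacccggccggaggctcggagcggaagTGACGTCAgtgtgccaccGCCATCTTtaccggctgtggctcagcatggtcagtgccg
DDOST promoter: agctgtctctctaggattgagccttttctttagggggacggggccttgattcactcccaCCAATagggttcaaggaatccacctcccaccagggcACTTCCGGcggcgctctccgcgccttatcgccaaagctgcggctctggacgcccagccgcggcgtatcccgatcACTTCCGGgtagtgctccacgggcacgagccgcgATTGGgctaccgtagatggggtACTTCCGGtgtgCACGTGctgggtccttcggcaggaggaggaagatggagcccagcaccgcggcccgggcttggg
PPP1R37 promoter: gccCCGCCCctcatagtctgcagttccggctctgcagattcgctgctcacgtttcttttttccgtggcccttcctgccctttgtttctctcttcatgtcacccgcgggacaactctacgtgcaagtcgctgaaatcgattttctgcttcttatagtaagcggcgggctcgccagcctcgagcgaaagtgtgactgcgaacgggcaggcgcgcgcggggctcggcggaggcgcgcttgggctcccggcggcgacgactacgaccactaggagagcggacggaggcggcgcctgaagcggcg

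The DDOST window held 3 copies of ACTTCCGG, letters that ETS-family factors such as GABPA are known to bind, at bases 96, 170 and 226, and the VCP summit was 1 base before the middle copy. It also held CCAAT at base 60, its reverse at base 204 and the E-box CACGTG at base 238. The ZNF562 window held the reverse of GGGCGG at base 26, TGACGTCA at base 244 and the reverse of AAGATGGC at base 262. The MRTO4 window held the reverse of CCAAT at base 171 and CACGTG at base 265. The AP1G1 and PPP1R37 windows each held 1 match, the reverse of GGGCGG at bases 282 and 4. A match is a description of letters and was not tested as a binding site.

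The UBB gene, which encodes a polyubiquitin precursor, had the highest -log10 q of the set (chromosome 17, 16380824 to 16381033). The peak had a fold enrichment of 5.04, the authors' ratio of reads at the summit over local background, and a -log10 q of 3.45. It rested on 17 reads (exact Poisson 95% interval 9.90 to 27.2) over a background of 2.57 reads, both derived from the authors' fold enrichment and p, with its summit 170 bp inside the gene start. The nearest listed Flag interval was 94160 bp away.

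The second peak lay between EMC1, which encodes a subunit of the membrane protein insertase of the endoplasmic reticulum, and MRTO4, a ribosome biogenesis gene (chromosome 1, 19251522 to 19251738). It had a fold enrichment of 4.85 and 17 reads over 2.71, and its summit was 122 bp from the start of MRTO4 and 159 bp from that of EMC1. The third was in EIF4A2, an RNA helicase of translation initiation (chromosome 3, 186783733 to 186783954), with a fold enrichment of 5.10, the highest of the set, and 14 reads over 1.94. EIF4A2 had a further Flag-free peak with its summit 232 bp upstream of the same start (fold enrichment 2.75, 10 reads). Its -log10 q was 0.105, so of the peaks on the 2 sides of this start only the downstream one reached a q of at most 0.05. NEURL4 on chromosome 17 also had 2 Flag-free peaks, 441 and 977 bp upstream of its start, with 8 and 9 reads. Their -log10 q values were 0.206 and 0.389.

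AP1G1, a subunit of the clathrin adaptor of the trans-Golgi network, had a fold enrichment of 4.76 and 13 reads (chromosome 16, 71808851 to 71809064). DDOST, a subunit of the oligosaccharyltransferase, shared a peak with the transcript end of KIF17, a kinesin gene (chromosome 1, 20661341 to 20661539, fold enrichment 4.74, 12 reads). UFM1, a ubiquitin-like modifier, had the same fold enrichment and reads, with its summit 217 bp inside the start (chromosome 13, 38350019 to 38350233). THADA on chromosome 2 had 16 reads and a fold enrichment of 4.25.

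ZNF562, a zinc finger gene, had the second widest interval among the 16 peaks at 471 bp (fold enrichment 4.40, 15 reads). PHF10, a subunit of a SWI/SNF remodeler, had its summit 916 bp inside its start (fold enrichment 4.74, 12 reads). TAF4, a subunit of TFIID, had its summit 278 bp upstream (fold enrichment 4.46, 13 reads). TINF2, a shelterin component at telomeres, had 14 reads and a fold enrichment of 4.21, and GMEB2, a DNA-binding protein gene, had 15 reads and 4.003. RRM2B, the p53-inducible subunit of ribonucleotide reductase, had a fold enrichment of 4.80 with 13 reads (chromosome 8, 102238514 to 102238885). The list was completed by the anion exchanger gene SLC26A6 with its neighbour CELSR3 (4.20), the phosphatase regulator gene PPP1R37 (4.003) and SECISBP2, which acts in selenoprotein synthesis (4.42). Just short of that q were FOXD2, a forkhead factor gene (4.31), INTS5, an Integrator subunit (4.11), and ADAM17, a sheddase of cell-surface proteins (4.11).

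**Figure D1:**
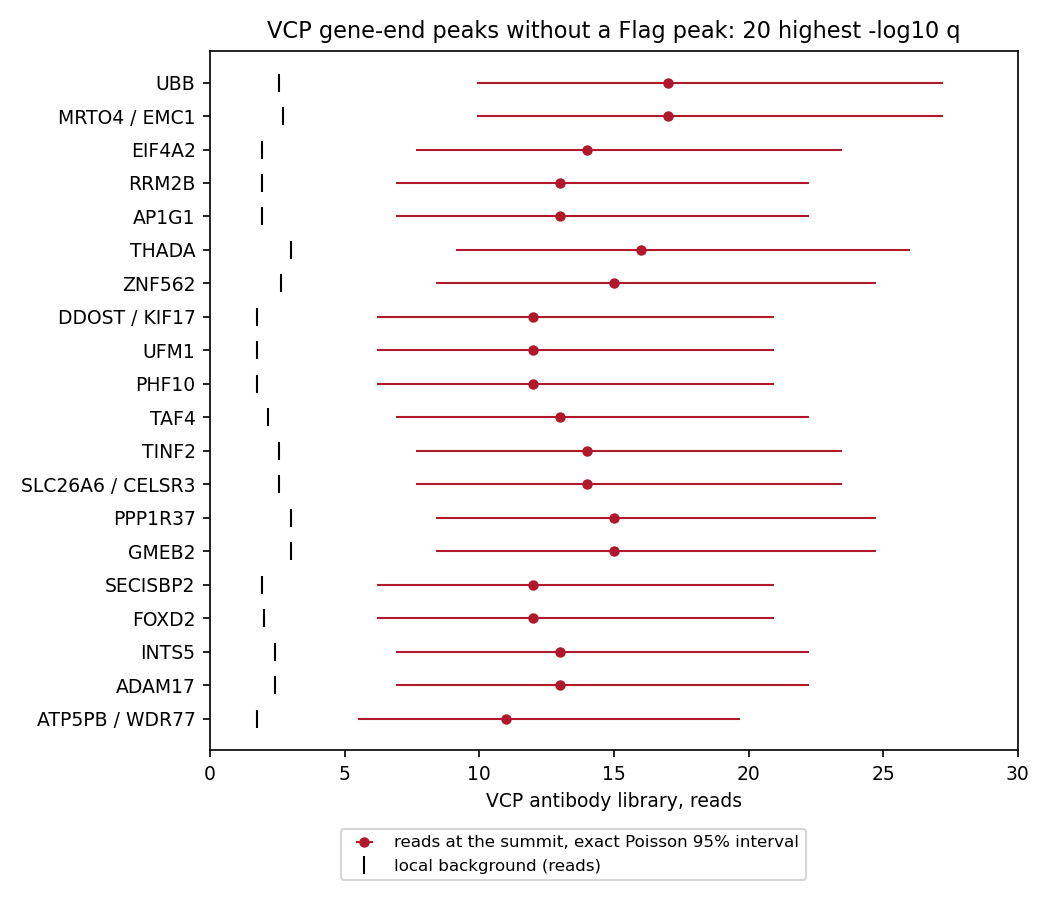
Reads at the summit of the 20 Flag-free gene-end peaks with the highest -log10 q in the VCP library (points, with exact Poisson 95% intervals) and the local background (ticks), in reads on the horizontal axis. The counts run between 11 and 17 reads and their intervals overlap throughout, so the order of neighbours in the plot is within counting error. The last place is shared with 17 further peaks of the same -log10 q, one of several ties.

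These were modest peaks. The median fold enrichment was 3.59 in Flag-free gene-end peaks (quartiles 3.23 and 3.84), 3.62 in Flag-accompanied ones (3.23 and 4.01) and 3.28 in all VCP peaks (2.92 and 3.65). The lowest fold enrichments were 2.45 at ELOC, which encodes elongin C, and 2.46 at INTS2, an Integrator subunit, and ELAPOR2. Reads at the summit had a median of 10 (range 7 to 19) in the Flag-free peaks and 11 (range 7 to 23) in the Flag-accompanied ones. The background stood at its lowest value, 1.74 reads, in 80 of 230 Flag-free peaks (34.8%) and 54 of 165 Flag-accompanied ones (32.7%). Across all VCP peaks the share was 23.6%. In such peaks the fold enrichment follows the reads alone. In all, 16 of 230 Flag-free peaks passed a q of 0.05 (6.96%, 4.03 to 11.1) and 30 of 165 Flag-accompanied peaks did (18.2%, 12.6 to 24.9), beside 6.49% of all VCP peaks. The share of Flag-free peaks at this threshold was thus near that of the whole list. The median q was 0.408 in the Flag-free peaks and 0.385 in the Flag-accompanied ones. All of these values belong to peaks that the list itself had selected, and they were not tested. With so few reads the values came in steps, and 51 of the 230 peaks shared a -log10 q of 0.389.

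**Figure D2:**
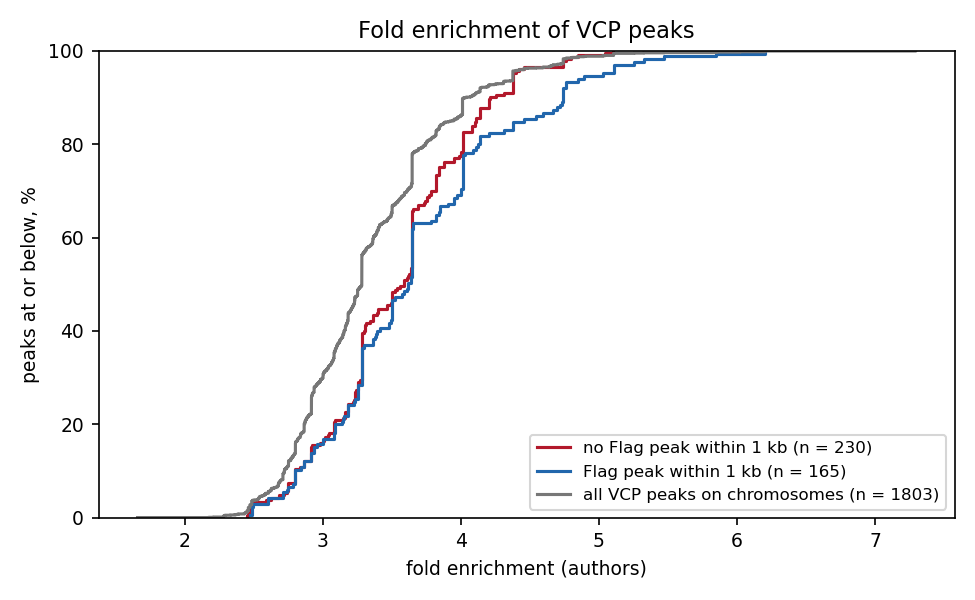
Cumulative share of peaks in percent (vertical axis) by the authors' fold enrichment (horizontal axis) for 230 Flag-free gene-end peaks, 165 Flag-accompanied gene-end peaks and all 1803 VCP peaks on chromosomes. The Flag-free and Flag-accompanied lines run close together up to their medians of 3.59 and 3.62 and part above, where the highest values are 5.10 and 6.20.

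Across classes of VCP peak strength the share without a Flag peak was lowest in the strongest. Among gene-end peaks with -log10 q of 1.3 or more, 16 of 46 had no Flag peak within 1 kb (34.8%, 21.4 to 50.2). Below 0.5 the count was 138 of 221 (62.4%, 55.7 to 68.8), between 0.5 and 1 it was 51 of 90 (56.7%, 45.8 to 67.1), and between 1 and 1.3 it was 25 of 38 (65.8%, 48.6 to 80.4). The interval of the strongest class overlapped those of both middle classes, and the differences were not tested.

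**Figure D3:**
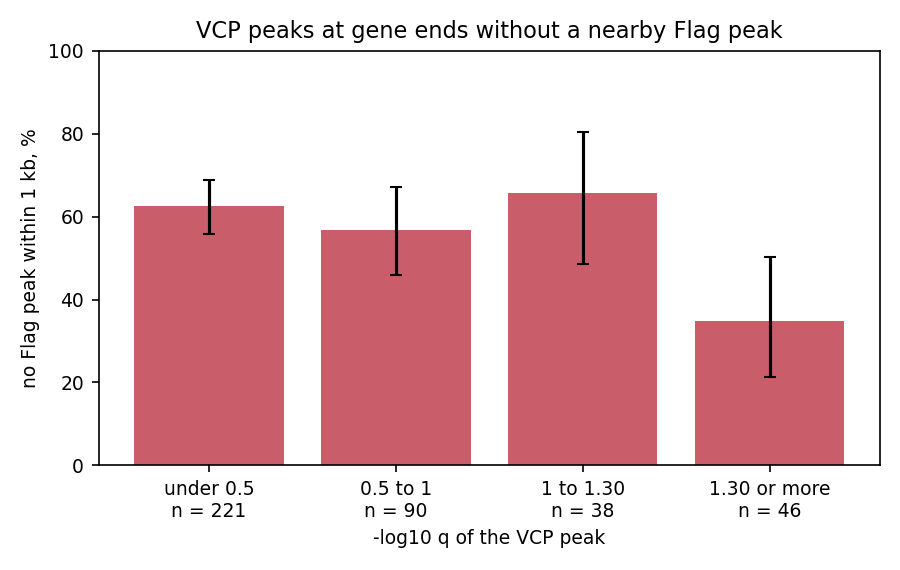
Share of VCP peaks at gene ends without a Flag peak within 1 kb, in percent with exact binomial 95% intervals, by class of -log10 q of the VCP peak. The bars stand at 62.4%, 56.7% and 65.8% in the 3 lower classes and at 34.8% in the highest.

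The distance to the nearest listed Flag interval, on which the peaks were chosen, had a median of 90644 bp in Flag-free peaks (quartiles 30819 and 228853) and 147882 bp in all VCP peaks. It lay within 5 kb for 13 of the 230 peaks (5.65%), within 10 kb for 23 and within 100 kb for 122. KCTD9 (1147 bp), ZFTA (1257 bp) and VSNL1 (1345 bp) were just inside the rule, and SPIN1 (959 bp), CCNG2 (926 bp) and HNRNPA2B1 (908 bp) just outside it. At the other extreme were MAPK8, a stress-activated kinase gene (2199770 bp), and DNAJC3, a chaperone gene (1649347 bp). At the other limit of the rule, H3-3A (1000 bp), ZFTA (997 bp) and RPL30 (992 bp) were the summits farthest from a gene end, while MGAT4B, HMGB2 and FKBP5 had VCP summits just beyond 1 kb. HMGB2, which encodes a DNA-bending protein, also had a Flag-free peak 537 bp from its end.

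The 230 peaks touched 270 protein-coding genes, 1.36% of the 19866 in the gene table, with neighbours that share a peak counted separately. Of these genes 28 (10.4%, 7.002 to 14.6) had a Flag interval in the gene or within 1 kb of it, away from the VCP peak, against 17.6% of all protein-coding genes. THADA, PFKFB3, which encodes a glycolytic regulator, and the phosphatase gene SSH1 had 3 each. The rule itself leaves out Flag intervals beside the VCP peak, so this share was not compared further. NDUFAB1, the acyl carrier protein of mitochondria, was the 1 gene in both sets. Its Flag-free peak was at the transcript end (fold enrichment 3.65, 9 reads), and another of its VCP peaks was Flag-accompanied.

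Intervals were short. The median width was 209 bp in Flag-free peaks (quartiles 192 and 283) and 223 bp in Flag-accompanied ones (196 and 318), beside 212 bp in all VCP peaks. Widths under 200 bp were found in 91 of 230 (39.6%, 33.2 to 46.2) and in 55 of 165 (33.3%, 26.2 to 41.1), beside 696 of 1803 (38.6%) in all VCP peaks. The Flag-free share was thus near that of the whole list. The narrowest intervals were 181 bp, which was also the lowest width in the whole VCP list. GORASP2, which encodes a Golgi stacking protein, SERPINA10 and ENDOV were among those at that width. The widest were the 631 bp interval at FMC1 and LUC7L2, the 497 bp interval at PPP1R37 and the 476 bp interval at TUBB3, a tubulin gene, which also lay within 1 kb of MC1R.

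The rule placed every summit within 1 kb of a gene end, so closeness to an end is not a result. Within that limit the distance to the nearest outer end had a median of 182.5 bp in Flag-free peaks and 163 bp in Flag-accompanied ones. Across all VCP peaks, which the rule did not limit, the median was 50927 bp. Summits lay within 250 bp in 149 of 230 (64.8%, 58.2 to 70.9) and 112 of 165 (67.9%, 60.2 to 74.9). The nearest were NSL1, a kinetochore gene that shares its peak with TATDN3 (0 bp), MED23, a Mediator subunit (6 bp), and BICDL1 (10 bp). A summit lay inside a protein-coding gene in 124 of 230 Flag-free peaks (53.9%) and in 91 of 165 Flag-accompanied ones (55.2%).

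Strand was known for 220 of the 270 genes, which allowed gene starts to be told from transcript ends. A peak counted as at a start when any known start lay within 1 kb, even where a transcript end was nearer. At MCRIP1, for example, the start was 181 bp away and the transcript end of PPP1R27 20 bp. Flag-free peaks were at a start in 172 cases and at a transcript end alone in 16. The other 42 were not classed because the strand of a gene was not known and no known start was within reach. Among the 188 classed peaks 91.5% (86.5 to 95.1) were at a start, against 136 of 142 Flag-accompanied peaks (95.8%, 91.0 to 98.4). The intervals overlap and the difference was not tested.

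Relative to the outer start, Flag-free summits were most frequent per 100 bp at 100 to 200 bp on each side, a shape that was not tested. Some genes have other listed starts further in, and the positions below do not use them. Against the nearest listed start some summits changed side, as at GORASP2 (688 bp downstream to 88 bp upstream), and most did not. Of 172, 32 lay 100 to 200 bp upstream (18.6%), 38 within 100 bp of the start on either side (22.1%) and 31 lay 100 to 200 bp downstream (18.0%). The middle zone is 200 bp wide and the outer ones 100 bp, and it held 17 summits before the start and 21 from it on. In the 136 Flag-accompanied peaks the same zones held 13 (9.56%), 40 (29.4%) and 32 (23.5%). The median position was 12 bp upstream in Flag-free peaks and 66 bp downstream in Flag-accompanied ones, and 83 of 172 (48.3%, 40.6 to 56.0) and 78 of 136 (57.4%, 48.6 to 65.8) were downstream. The shift was not tested, and these intervals overlap.

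**Figure D4:**
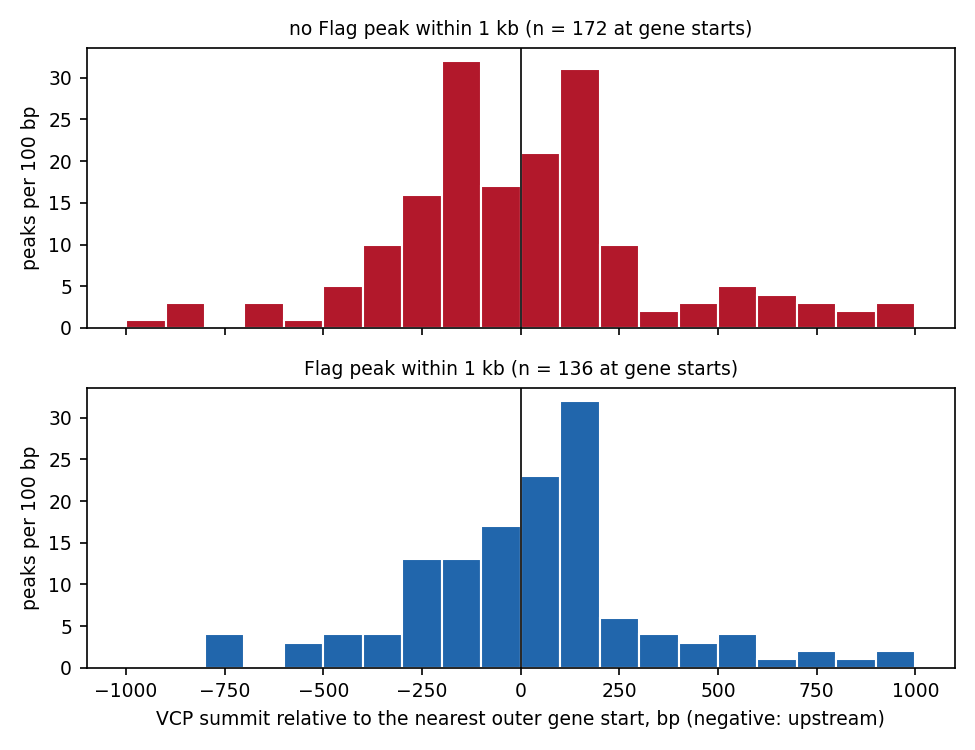
Number of VCP summits per 100 bp (vertical axis) by position relative to the nearest outer gene start in bp (horizontal axis, negative is upstream), for 172 Flag-free peaks (upper panel) and 136 Flag-accompanied peaks (lower panel). The upper panel has its highest bars at 100 to 200 bp on each side of the start, with 32 and 31 peaks, and the lower panel has 13 and 32 there.

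The 16 Flag-free peaks at transcript ends alone had low counts of reads, between 8 and 12. The highest -log10 q was at GDF15, a stress-induced cytokine gene (514 bp inside its end, fold enrichment 3.82, 12 reads), followed by SPIB, a transcription factor gene (254 bp beyond the end, 3.64) and PDPK1, a kinase gene (118 bp beyond, 3.50). ATG13, of the autophagy initiation complex, TLR9, an innate immune receptor, NFATC1 and CEBPB, both transcription factor genes, and CRELD2, a chaperone-like gene of the unfolded protein response, were also in this class. CEBPB is a short gene, and its summit was 605 bp from the transcript end and 1502 bp from the start.

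Some of the peaks lay near the ends of several genes. The ends of 2 or more protein-coding genes lay within 1 kb of the summit in 38 of 230 Flag-free peaks (16.5%, 12.0 to 21.96) and in 32 of 165 Flag-accompanied ones (19.4%, 13.7 to 26.3). At 19 Flag-free peaks (8.26%) 2 or more known starts were within reach, among them EMC1 with MRTO4, WDR77, a methylosome gene, with ATP5PB, and RAD17, a checkpoint gene, with TAF9 and AK6. With genes of every type counted, 83 of 230 (36.1%, 29.9 to 42.7) and 80 of 165 (48.5%, 40.6 to 56.4) had 2 or more.

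Promoters of the genes were rich in CpG. The median GC content was 66.7% in 294 promoter windows of Flag-free genes, 64.8% in 230 windows of Flag-accompanied genes and 62.3% in all 22199 windows of protein-coding genes. The CpG count per window had a median of 27, 27 and 21 in the same order. ACTTCCGG, on either strand, was in 36 of 294 Flag-free windows (12.2%, 8.73 to 16.5), in 18 of 230 Flag-accompanied windows (7.83%, 4.70 to 12.1) and in 5.34% of all windows. It was in 15 of the 89 windows that held a Flag-free summit (16.9%, 9.75 to 26.3) and in 7 of the 61 that held a Flag-accompanied summit (11.5%, 4.74 to 22.2). AAGATGGC was in 6.46% (3.94 to 9.91), 2.61% (0.963 to 5.59) and 3.53% in the same order. GGGCGG was in 71.1%, 66.5% and 56.3%, and CCAAT in 32.3%, 29.6% and 34.7%. TATAAA was in 8.84%, 7.39% and 9.47%, CACGTG in 8.50%, 9.57% and 8.34%, TGACGTCA in 2.04%, 3.04% and 2.26%, and CGCATGCG in 1.701%, 4.78% and 2.49%. Genes with several listed starts count more than once, and base content moves with each motif and its part was not tested.

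Functions were read from 27 gene lists, with 60 of the 270 genes in any list. Of these 60, 7 had a peak with a q of at most 0.05. Across all protein-coding genes 1.36% had a Flag-free gene-end peak and 0.982% a Flag-accompanied one, and that background takes in genes that HCT116 cells may not transcribe. No list was tested, and 27 intervals were looked at. The intervals stood above 1.36% for 4 lists: the unfolded protein response with endoplasmic-reticulum-associated degradation, mitochondrial ribosomal proteins, ubiquitin conjugation and removal, and RNA polymerases with general transcription factors. With each peak counted for its nearest gene alone, the counts were lower by more than 1.5 times in the first and last of these 4, and were 1 each for chaperones, DNA repair and splicing, against 2 each with every gene counted.

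In the list of the unfolded protein response and degradation at the endoplasmic reticulum, where VCP has its best-known role, 4 of 45 genes had a Flag-free peak (8.89%, 2.48 to 21.2) and 1 had a Flag-accompanied one (RNF139). Besides EMC1 these were ERLEC1, a lectin that hands glycoproteins to degradation (fold enrichment 3.84, 10 reads), DNAJC3 (3.65, 9 reads) and CRELD2 (3.28, 8 reads). Only the peak of EMC1, the insertase subunit named above, reached a q of at most 0.05. The -log10 q was 0.697 at ERLEC1, 0.389 at DNAJC3 and 0.206 at CRELD2. EMC1 and ERLEC1 share their peaks with MRTO4 and ASB3, whose starts are nearer to the summits, and with each peak counted for its nearest gene alone the list had 2 of 45 (4.44%). The genes of VCP itself and its cofactors had neither kind of peak (0 of 36, exact upper bound 9.74%).

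Mitochondrial ribosomal protein genes had 6 of 77 (7.79%, 2.91 to 16.2) with a Flag-free peak and 0 with a Flag-accompanied one, beside 0.982% of all genes with that kind. MRPS22 (fold enrichment 4.01, 10 reads), MRPL38 (3.39, 14 reads), MRPL52 (3.65, 9 reads), MRPS34 (3.23, 12 reads) and MRPS23 (2.63, 14 reads) had theirs at the start, within 68 to 244 bp, and MRPL4 (3.08, 10 reads) had it 440 bp beyond the transcript end. None of the 6 peaks reached a q of at most 0.05, the highest -log10 q being 0.697. Subunits of oxidative phosphorylation had 3 of 75 (4%) with Flag-free peaks, ATP5PB (4.38), ATP5PD (3.61) and NDUFAB1, and 6 with Flag-accompanied ones. Cytoplasmic ribosomal protein genes had 3 of 83 of each kind, the Flag-free ones being RPL17 (4.20), RPLP0 (3.69) and RPL30 (3.24). RPL17 shares its peak with the read-through gene RPL17-C18orf32.

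The ubiquitin system had 5 of 114 genes (4.39%, 1.44 to 9.94) with a Flag-free peak and 4 with a Flag-accompanied one. After UBB came RNF7, a RING subunit of cullin ligases, with its summit 14 bp from the start (fold enrichment 4.14, 12 reads), and CBL, a ligase for receptor tyrosine kinases (3.82, 11 reads). UBE2W, a conjugating enzyme (2.59, 16 reads over a background of 5.57), and USP48, a deubiquitinase (2.92, 7 reads), were weaker. Of the 5, only the UBB peak reached a q of at most 0.05, and the -log10 q at USP48 was 0.054. Some genes of related function outside the list were picked after their values were seen: UFM1, UFSP1, a protease for UFM1 (4.38), CRBN, a cullin adaptor (3.82), and SENP5, a SUMO protease (3.69). The summit of the UFSP1 peak lay inside the gene ACHE, whose transcript end was nearer (344 bp against 623 bp). The proteasome had PSMD11 alone (1 of 42, 3.82), the chaperones DNAJC7 (3.75) and BAG5 (2.47, 2 of 54), and autophagy ATG13 (1 of 48).

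The transcription machinery had 5 of 115 genes (4.35%, 1.43 to 9.85), against 3 with a Flag-accompanied peak. Counted by the nearest gene alone there were 2 (1.74%). The 5 were TAF4, MED23 (fold enrichment 3.63, 15 reads), POLR3G, a subunit of RNA polymerase III (3.53), MED8 (3.23) and TAF9 (2.47). Only the TAF4 peak reached a q of at most 0.05, and the -log10 q was 0.389 at MED8 and 0.054 at TAF9. Among chromatin modifiers 1 of 151 had a Flag-free peak, EHMT1, a histone methyltransferase (2.75), and 5 a Flag-accompanied one. Splicing factors had 2 of 94, LSM2 (4.20) and PHF5A (3.34), and 2 Flag-accompanied ones. DNA repair had FANCD2 (3.95) and RAD17 (2.47), 2 of 90, with 2 Flag-accompanied ones, and DNA replication had RRM1 (3.28), 1 of 61. The p53 list had RRM2B and GDF15, 2 of 33 and 0 Flag-accompanied. Translation factors had EIF4A2 alone (1 of 51).

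Large families were also counted. Zinc finger genes had 6 of 559 (1.07%), led by ZNF562, ZNF549 (fold enrichment 4.10), ZNF738 (4.01) and ZNF296 (3.36). The name pattern also took in ZFP36L2, which encodes an RNA-binding protein. Solute carriers had 8 of 383 (2.09%), led by SLC26A6, the zinc exporter SLC30A1 (3.95), SLC35F1 (3.84) and the nucleoside transporter SLC29A1 (3.82). TMEM genes had 4 of 232 (1.72%), CCDC genes 1 of 130 (0.769%) and olfactory receptors 1 of 389 (0.257%), OR2T12. Replication-dependent histones (0 of 70, upper bound 5.13%), NF-kappa-B genes (0 of 30, 11.6%), immediate early genes (0 of 35, 10.0%) and keratin-associated proteins (0 of 94, 3.85%) had none. The histone and NF-kappa-B lists had 2 Flag-accompanied genes each.

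**Figure D5:**
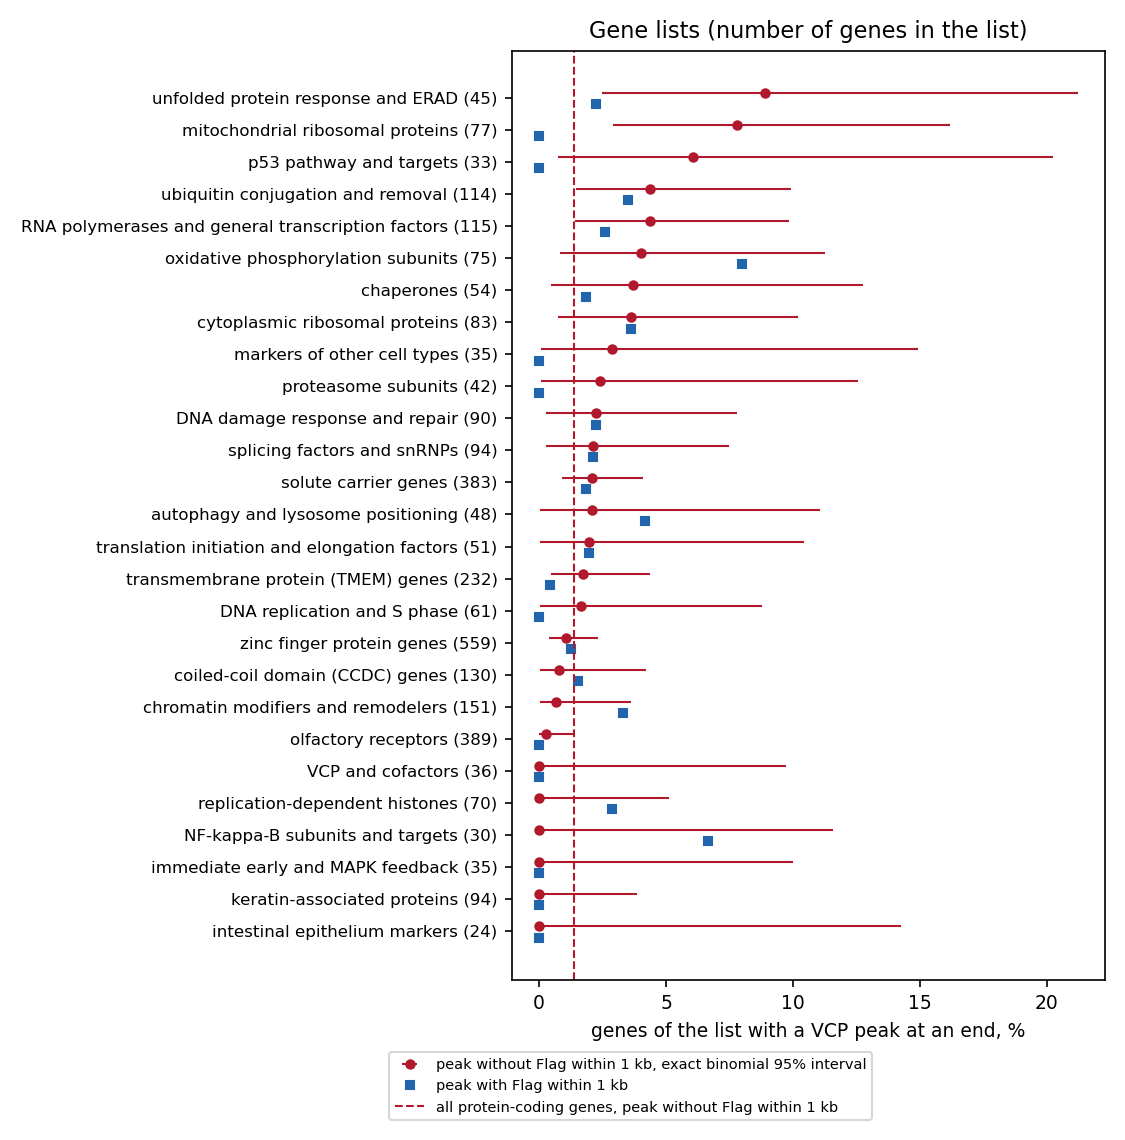
Share of the genes of each list with a VCP peak at an end, in percent, for Flag-free peaks (circles, with exact binomial 95% intervals) and Flag-accompanied peaks (squares), with the list size in brackets. The dashed line is the 1.36% of all protein-coding genes with a Flag-free peak, and the lists for the unfolded protein response (8.89%) and mitochondrial ribosomal proteins (7.79%) stand highest.

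By chromosome, 32 Flag-free peaks lay on chromosome 1 (13.9%), against 15 Flag-accompanied ones (9.09%), with 10.3% of protein-coding genes there. Chromosome 17 held 20 (8.70%) and 16 (9.70%), with 5.82% of the genes, and chromosome 7 held 16 (6.96%) and 5 (3.03%), with 4.71%. Chromosomes 8, 10 and 17, on which HCT116 is known to carry gained segments, together held 36 of 230 (15.7%, 11.2 to 21.0) and 29 of 165 (17.6%, 12.1 to 24.3), with 13.1% of the genes. Chromosome X held 0 of 230, with an exact upper bound of 1.59%, and 1 of 165, with 4.27% of the genes.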

How the data were processed

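MACS2 2.1.0, Bowtie 1.1.2, Trimmomatic 0.33 and bcl2fastq 2.17 are named in the submitters' processing notes, with build hg38 and with settings not given in the sources used here for any of them. The deposited lists give, per peak, a position, a summit, a score, the authors' fold enrichment, which is a ratio, and the authors' -log10 p and -log10 q. The deposited score was not used. Each list came from 1 library.

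Whole reads at each summit were derived from fold enrichment and p with a pseudocount of 1 read, and matched the deposited -log10 p within 0.001 for all 1816 VCP peaks. The step was also run on simulated peaks whose p was the Poisson tail at or above the read count. It accepts the tail above the count as well, and the simulation did not cover that form, so it cannot check it. Genes came from a RefSeq table of GRCh38.p14, of which 58961 of 59792 rows were kept, and strand from its promoter table, which covers 15843 of 19866 protein-coding genes. Of the list symbols, 1216 of 1217 matched; 19 lists were written by member and 8 by symbol pattern. Shares have exact (Clopper-Pearson) 95% intervals, which cover counting error only, because each antibody had 1 library. The Poisson intervals of reads take each read as a separate molecule, which PCR copies are not. Python 3.11.15, pandas 2.3.3 and SciPy 1.17.1 were used. No test was run, since each antibody had 1 library and the peaks were chosen on their own values.

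The peaks and lists were chosen with earlier results of these data known. Named were the genes of the 20 highest -log10 q values, up to 4 per list, and the extremes of width, position and the rule's limits. Other genes were named after their values were seen, among them those at transcript ends, with the lowest fold enrichment, farthest from a Flag interval or with Flag intervals elsewhere, and further list genes. Alternatives were other Flag distances, a narrower gene-end window, q thresholds, chromosomes left out, nearest genes alone, genes of every type and a narrower promoter set.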

Additional observations from a re-analysis of the deposited data

How the results depend on the processing

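Under the alternatives, 49 recomputed values stayed within 1.5 times (counts) or within the 95% interval of the main value, and 15 did not. With VCP peaks limited to a q of at most 0.05, 16 Flag-free peaks were left, with a median fold enrichment of 4.60, a median of 14 reads, a median summit distance of 208 bp, 100% at that q by construction, 100% of the classed peaks at a start, and 7 genes in the lists. The cause of the shift in summit distance was not tested. With a 500 bp window the median summit distance was 142 bp, as a narrower window must lower it. With genes of every type counted, 36.1% had paired ends, since more genes were counted. In promoter windows that held the summit, CCAAT was found in 19.1%, GGGCGG in 83.1%, ACTTCCGG in 16.9%, CACGTG in 13.5%, CGCATGCG in 0% and TATAAA in 4.49%, and the cause was not tested. The number of Flag-free peaks ran between 185 and 294 under the other alternatives, with 294 when only Flag peaks with a q of at most 0.05 counted as nearby. No paired analysis was possible because each antibody had 1 library, and for the same reason no library could be left out. With a median of 10 reads per summit, depth limits the ranking of single peaks, and the read intervals of the 20 highest-ranked peaks overlap.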
